A study of Mus musculus with 6 samples.

Results

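Semaphorins, with the plexins and neuropilins that bind them, were followed across 3 subsets of thymic endothelial cells (ECs). The 10 genes described are the ligands Sema3g, Sema3f, Sema6a, Sema6d and Sema7a, the receptors Plxnd1, Plxna2 and Plxnb2, and the co-receptors Nrp1 and Nrp2, each found by its symbol as 1 row of the 24457 genes measured. Sema3g was chosen because its RNA falls in type III ECs, so its values in that subset are given as a description, with no test. The other genes were chosen with earlier results of these data known, so their counts beside those of all genes are a description. The study asked which vessels let progenitors enter the thymus, and sorted ECs by the surface proteins Ly6C and P-selectin (Selp). Type I ECs were Ly6C+ Selp-, type II were Ly6C+ Selp+ and type III were Ly6C- Selp+. All came from the thymus of wildtype female C57BL/6 mice aged 4 to 6 weeks, were gated as CD31+ CD45- EpCAM- and had a purity of at least 90%. RNA of each subset was sequenced in 2 libraries, replicates 1 and 2, so there were 6 libraries in all. The labels do not say whether the replicates came from separate mice, so the p-values measure the spread between libraries, which may be technical.

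Semaphorins are guidance proteins that are secreted, anchored in the membrane of the cell that makes them, or tethered to it by a lipid. They signal through plexins, whose intracellular part switches off small GTPases and loosens the cytoskeleton and integrin adhesion, and most class 3 semaphorins need a neuropilin to hold them to the plexin. In vessels, neuropilins also bind VEGF beside its receptors, Plxnd1 steers sprouting, and Sema3g is known as a marker of arterial endothelium.

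Expression is given as FPKM, the fragments of a gene per kilobase of transcript and per unit of sequencing depth, so levels can be compared between genes. The sequencing depth, estimated from the width of the confidence interval that the authors' software gave each FPKM, was 1452476 to 2423171 fragments per library, and 3 fragments corresponded to a median FPKM of 0.324 to 0.553. RNA of the sorting markers followed the gates. Selp averaged 6.54 ± 1.89 FPKM (SD, n = 2) in type I, 364 ± 72.5 in type II and 591 ± 92.8 in type III, and Ly6c1 averaged 851 ± 225, 436 ± 121 and 79.7 ± 28.2. The 10 pan-endothelial markers were measured in every library, with a summed FPKM of 2444 to 3141. Leukocyte markers were also present: the sum of 8 myeloid markers ran from 33.3 to 406 FPKM and that of 10 thymocyte markers from 27.9 to 187, both highest in type III replicate 1.

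Differences between subsets were tested with limma on log2(FPKM + 1), and every adjusted p below is Benjamini-Hochberg adjusted over the 11717 genes that reached an FPKM of 1 in at least 2 libraries. All 10 genes passed that filter. Libraries with the same replicate number deviated together weakly, with correlations of 0.180 to 0.306 between subsets. The labels name no shared batch. A second fit took the number as a block, and its adjusted p is given where it changes a call. Fold changes on this scale are smaller than the FPKM ratios for genes near 0. In bulk RNA, fewer cells of a kind and less RNA per cell cannot be told apart.

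Type III against type I compares the 2 ends of the sort, Ly6C- Selp+ with Ly6C+ Selp- ECs. Sema7a and Nrp1 fell, Plxnb2 rose, and Sema3g, chosen for this, was nearly gone. Of the 9 genes other than Sema3g, 1 was called higher and 2 were called lower at an adjusted p under 0.05, where 4.14% of all tested genes were called, 2.09% higher and 2.05% lower. The other 6 were not called. In a fit of the 6668 genes with a mean FPKM of at least 5, which all 9 passed, 459 were called. The 9 genes were chosen with earlier results of these data known, so the counts in this paragraph are a description. Types I and III had no overlap between libraries in 7 of these 9 genes, where 37.9% of all tested genes had none. Type III was the higher in 2 of the 7 (20.7% of all tested genes) and the lower in 5 (17.1%). The median log2 difference of the 9 genes was -0.33, and that of all tested genes 0.08. The plot of FPKM by library shows the 10 genes.

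**Figure D1:**
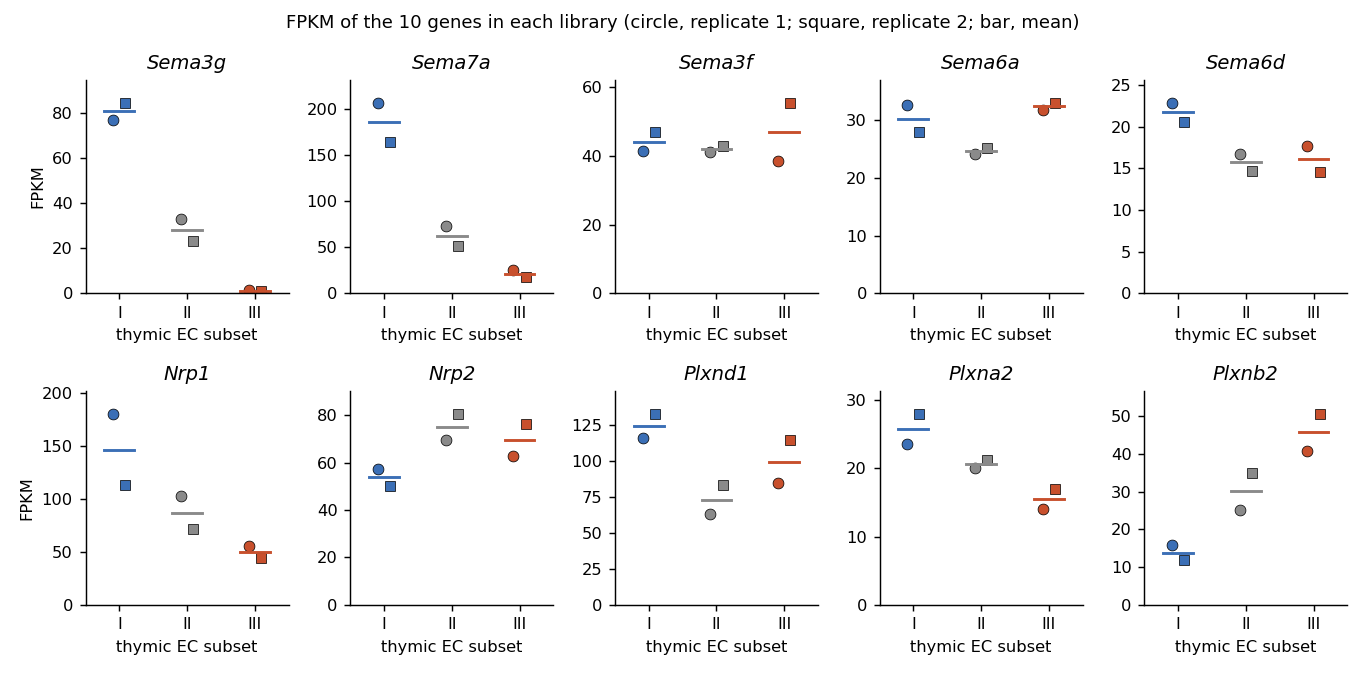
FPKM (vertical axes, from 0, each gene on its own scale) of the 10 genes in each of the 6 libraries, by thymic EC subset, with circles for replicate 1, squares for replicate 2 and a bar at the mean of each subset. Sema3g lies at 76.6 and 84.4 in type I and at 1.40 and 0.965 in type III, Sema7a and Nrp1 are lower in each type III library than in each type I library, and Plxnb2 is higher.

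Of the secreted ligands, Sema3g and Sema3f are both class 3 semaphorins that bind neuropilins, and their RNA took different courses. Sema3g (chr14:32031059-32042697 on mm9, plus strand, 16 exons) was at 76.6 and 84.4 FPKM in type I, 32.8 and 23.2 in type II, and 1.40 and 0.965 in type III. No library of one subset overlapped with another, and the means were 80.5 ± 5.48, 28.0 ± 6.77 and 1.18 ± 0.311 FPKM (SD, n = 2). The mean FPKM of type I was 68.0 times that of type III, and that of type II was 23.6 times that of type III. The values in type III rest on an estimated 11 and 13 fragments, against 822 and 1150 in type I, and the authors' 95% intervals there ran from 0.557 to 2.25 and from 0.430 to 1.5 FPKM. Among all genes, Sema3g ranked between 391 and 587 by FPKM in the type I libraries and between 10524 and 10753 in those of type III.

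Type II against type I is the only comparison of Sema3g without type III, where its fall was the reason for its choice. It shares the type I libraries with that fall, so its p-values are not independent of the choice. The difference of Sema3g between types II and I was -1.51 on the log2 scale (SE 0.28, 95% interval -2.15 to -0.87). Its adjusted p was 0.0747 by limma, just short of the threshold. It was called with the replicate block (adjusted p = 0.0192) and when genes with a mean FPKM under 5 were left out (0.0488), and its adjusted p over all alternatives ran from 0.0192 to 0.553.

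Sema3f (chr9:107583833-107612806, minus strand), which signals through Nrp2, stayed within a narrow band. It was at 41.3 and 46.9 FPKM in type I, 41.1 and 42.8 in type II, and 38.5 and 55.4 in type III. The subsets overlapped, and the difference between types III and I was 0.07 (95% interval -0.52 to 0.65, adjusted p = 0.959 by limma), a sign that flips with the scaling. The ratio of Sema3g to Sema3f, which does not depend on the scaling of a library, was 1.86 and 1.80 in type I, 0.798 and 0.543 in type II, and 0.0365 and 0.0174 in type III. Sema3g was thus the higher of the pair in type I and the lower of the pair in both other subsets.

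Sema7a, a semaphorin tethered to the membrane by a GPI anchor that signals through Plxnc1 and the integrins Itgb1 and Itga1, was the most abundant ligand in type I and lost most of its level in type III. It lies at chr9:57787942-57810672 on the plus strand, with 14 exons. Its FPKM was 207 and 165 in type I, 73.2 and 51.5 in type II, and 25.0 and 18.1 in type III, with no overlap between subsets. From a mean of 186 ± 30.3 FPKM in type I to 21.6 ± 4.92 in type III (SD, n = 2) the ratio was 8.62, and the log2 difference was -3.06 (SE 0.28, adjusted p = 0.000579 by limma). The call held with each of the 6 libraries left out in turn. Type II lay between, at 62.3 ± 15.3 FPKM, with a log2 difference of -1.57 from type I (SE 0.28, adjusted p = 0.0636) that just missed the threshold. Type III differed from type II by -1.48 (SE 0.28, adjusted p = 0.0836). Both steps were called with the replicate block (adjusted p = 0.00518 and 0.00836) and when libraries were rescaled by median-of-ratios factors.

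The transmembrane class 6 ligands Sema6a and Sema6d, which bind class A plexins, moved little. Sema6a (chromosome 18, minus strand) was at 32.7 and 28.0 FPKM in type I, 24.1 and 25.2 in type II, and 31.8 and 33.1 in type III, so types I and III overlapped. Its difference between types III and I was 0.10 (95% interval -0.44 to 0.64, adjusted p = 0.926 by limma), and the sign flips with the scaling. Sema6d (chr2:123915705-124493525, plus strand) was at 22.9 and 20.6 FPKM in type I, 16.7 and 14.7 in type II, and 17.7 and 14.5 in type III. Type I was the highest without overlap, but the difference of -0.42 between types III and I was not called (95% interval -1.0 to 0.17, adjusted p = 0.578). The intervals of both genes leave out a rise of 2-fold on this scale, and that of Sema6d runs close to a fall of 2-fold. Sema6d overlaps 2 rows of noncoding transcripts that reached at most 1.01 FPKM.

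Plxnb2, the class B plexin that binds class 4 semaphorins, was the receptor that rose. It lies at chr15:88985976-89011218 on the minus strand, with 37 exons. Its FPKM was 15.7 and 11.8 in type I, 25.2 and 35.1 in type II, and 40.9 and 50.6 in type III, with no overlap between subsets. The mean rose from 13.8 ± 2.80 to 45.8 ± 6.89 FPKM (SD, n = 2), a ratio of 3.32 and a log2 difference of 1.67 (SE 0.28, adjusted p = 0.0113 by limma). Type II, at 30.1 ± 6.99 FPKM, differed from type I by 1.07 (adjusted p = 0.235) and from type III by 0.60 (adjusted p = 0.543), neither of which was called. The call of type III against type I was lost without type I replicate 2 (adjusted p = 0.0680), without type III replicate 1 (0.0526) and without type III replicate 2 (0.0945), and the log2 difference then ranged from 1.47 to 1.82.

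Plxnd1, the endothelial plexin for which class 3 semaphorins are ligands, had the highest level of the plexins in every subset. It lies at chr6:115904829-115945023 on the minus strand, with 36 exons, and was at 116 and 133 FPKM in type I, 63.4 and 83.0 in type II, and 84.5 and 115 in type III. Type II was the lowest without overlap, but neither its difference of -0.77 from type I (95% interval -1.35 to -0.18, adjusted p = 0.438 by limma) nor that of type III from type I, -0.33 (-0.92 to 0.25, adjusted p = 0.685), was called. Plxna2 (chr1:196446023-196643062, plus strand), a class A plexin, was at 23.6 and 28.0 FPKM in type I, 20.0 and 21.2 in type II, and 14.1 and 16.9 in type III. The 3 subsets did not overlap, and the difference of -0.70 between types III and I (95% interval -1.28 to -0.13) had an adjusted p of 0.228.

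Of the neuropilins, Nrp1 fell and Nrp2 was not called. Nrp1, the co-receptor of Sema3a and of VEGF, lies at chr8:130882973-131029375 on the plus strand, with 17 exons, and was at 180 and 113 FPKM in type I, 103 and 71.8 in type II, and 55.8 and 44.1 in type III. The subsets did not overlap, and the mean fell from 147 ± 47.6 FPKM in type I to 49.9 ± 8.26 in type III (SD, n = 2), a ratio of 2.94. The log2 difference was -1.51 (SE 0.30, adjusted p = 0.0255 by limma). Type II, at 87.1 ± 21.7 FPKM, was not called against type I (-0.73, adjusted p = 0.616) or against type III (adjusted p = 0.444). The call of type III against type I was lost without type I replicate 1 (-1.17, adjusted p = 0.103), without type III replicate 1 (-1.67, 0.0910), without type III replicate 2 (-1.34, 0.158), and without limma's trend (0.066).

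Pericytes and other mesenchymal cells can also express Nrp1. The sum of 10 of their markers was 586 and 257 FPKM in type I, 681 and 416 in type II, and 199 and 238 in type III, of which Rgs5 made up 346 and 114, 284 and 137, and 48.6 and 45.4. The mean FPKM of 6 of the 10 markers was lower in type III than in type I and that of 4 was higher, among them Acta2 at 25.4 ± 11.9 FPKM in type III and 10.6 ± 4.36 in type I (SD, n = 2). Pdgfrb was the 1 marker called between these subsets, and fell from 39.0 and 24.2 to 6.40 and 9.43 FPKM (log2 difference -1.85, adjusted p = 0.0132 by limma). The part of these cells in the fall of Nrp1 was not tested.

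Nrp2, the co-receptor of Sema3f and of VEGF-C, is known from veins and lymphatics. It lies at chr1:62749891-62865266 on the plus strand and was at 57.5 and 50.04 FPKM in type I, 69.8 and 80.6 in type II, and 62.8 and 76.2 in type III. Type I was the lowest without overlap, but its differences from type III, 0.36 (95% interval -0.18 to 0.90, adjusted p = 0.609 by limma), and from type II, 0.48 (-0.06 to 1.01, adjusted p = 0.735), were not called. The sum of 4 lymphatic markers was 23.9 and 18.7 FPKM in type I, 12.4 and 9.85 in type II, and 30.1 and 13.3 in type III. Their courses differed, and none was called between types III and I. The mean FPKM in types I and III was 0.421 and 3.14 for Prox1, 0 and 6.74 for Lyve1, 2.45 and 3.54 for Pdpn, and 18.4 and 8.30 for Flt4. The type III mean of Lyve1 came mostly from replicate 1, at 12.4 FPKM, with 1.07 in replicate 2. Nrp2 also overlaps the row 4930487H11Rik, which reached at most 5.85 FPKM. Their part in Nrp2 was not tested.

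Within a library, the ratio of Nrp1 to Nrp2 was 3.13 and 2.26 in type I, 1.47 and 0.891 in type II, and 0.888 and 0.578 in type III. Nrp1 was thus the higher of the pair in both type I libraries and the lower in both type III libraries. Its share of the neuropilin FPKM went from 72.5% ± 4.6 over 53.3% ± 8.76 to 41.8% ± 7.35 (SD, n = 2). The ratio was not tested: an exact permutation test of 2 against 2 libraries cannot go below a two-sided p of 0.33.

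**Figure D2:**
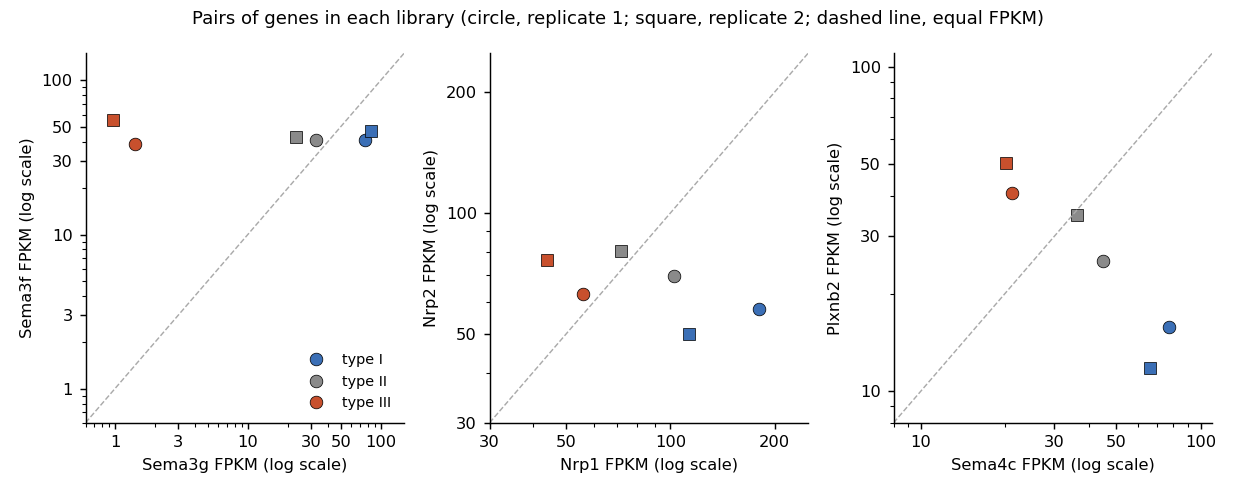
FPKM of 3 pairs of genes on log axes, Sema3g with Sema3f, Nrp1 with Nrp2 and Sema4c with Plxnb2, with 1 point per library (circles replicate 1, squares replicate 2) and a dashed line of equal FPKM. In each panel the type I libraries lie below the line and the type III libraries above it.

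The sequences just before 4 of these genes are shown because Sema3g, Sema7a and Nrp1 went down from type I to type III together while Plxnb2 went up. Each is the 250 bases before a RefSeq transcript start on GRCm38.p6, 5′ to 3′ on the strand of the gene, and each had 1 exact match on mm9. On mm9 they are chr14:32030809-32031058 (plus) for Sema3g, chr9:57787669-57787918 (plus) for Sema7a, chr8:130882723-130882972 (plus) for Nrp1 and chr15:89011219-89011468 (minus) for Plxnb2, for which the start nearest the edge of the gene was taken. Capitals mark GGAAG or CTTCC, a form of the site of ETS factors, which endothelial genes often use. They also mark the letters of the Notch factor RBPJ, TGGGAA or TTCCCA. Other forms of the ETS site, such as GGAA before another base, were not searched.
Sema3g: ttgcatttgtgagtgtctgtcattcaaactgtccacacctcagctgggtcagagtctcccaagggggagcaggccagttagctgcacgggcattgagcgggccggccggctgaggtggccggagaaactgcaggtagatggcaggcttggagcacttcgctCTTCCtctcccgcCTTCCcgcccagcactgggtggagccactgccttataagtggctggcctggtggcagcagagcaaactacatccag
Sema7a: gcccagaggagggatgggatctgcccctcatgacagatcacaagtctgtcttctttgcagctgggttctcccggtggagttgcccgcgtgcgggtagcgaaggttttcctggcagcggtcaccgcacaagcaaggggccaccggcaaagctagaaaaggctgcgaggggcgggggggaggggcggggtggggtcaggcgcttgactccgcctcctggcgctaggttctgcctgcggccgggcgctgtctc
Nrp1: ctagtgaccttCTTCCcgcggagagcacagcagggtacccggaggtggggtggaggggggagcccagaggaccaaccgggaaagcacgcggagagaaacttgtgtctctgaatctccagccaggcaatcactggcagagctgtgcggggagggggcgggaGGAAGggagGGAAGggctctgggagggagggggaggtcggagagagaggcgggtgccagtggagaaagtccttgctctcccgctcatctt
Plxnb2: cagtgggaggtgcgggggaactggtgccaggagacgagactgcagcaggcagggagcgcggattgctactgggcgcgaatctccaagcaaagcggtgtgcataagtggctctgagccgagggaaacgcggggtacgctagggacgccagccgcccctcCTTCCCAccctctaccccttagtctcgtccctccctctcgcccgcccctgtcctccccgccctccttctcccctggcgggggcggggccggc
GGAAG or CTTCC was found 2 times before Sema3g, 3 times before Nrp1, 1 time before Plxnb2 and not before Sema7a. Of 32851 RefSeq promoter stretches of this length, 64.1% held it. RBPJ letters were found 1 time, before Plxnb2, where they overlap CTTCC, against 21.6% of all stretches. The counts for Plxnb2 depend on the start taken. Before its other RefSeq start, at chr15:89004382-89004631 on mm9, GGAAG or CTTCC was found 2 times and RBPJ letters 0 times. The letters of the SOX core, ACAAT or ATTGT, were in none of the 4 and in 27.7% of all. A match here is a run of letters and not a known binding site, and no match says nothing of the factor.

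The other members of these families that were measured put the 10 genes in context. Of 15 other semaphorins 8 passed the filter, and of 6 other plexins 3 did. The remaining 7 semaphorins and 3 plexins were low, with Sema3e listed at 0 in all 6 libraries, and Plxnc1, the plexin of Sema7a, at 0.522 to 2.34 FPKM. Of the 11 that passed, 1 was called between types III and I, where 4.14% of all tested genes were. Sema4c, a transmembrane ligand of Plxnb2, fell from 76.9 and 65.8 FPKM in type I over 44.7 and 36.1 in type II to 21.2 and 20.2 in type III. No library overlapped between subsets, and the difference of -1.73 (SE 0.24, adjusted p = 0.00470 by limma) was called with each library left out in turn. Its difference of -0.92 between types III and II was called with the replicate block (adjusted p = 0.0427) and not without it (0.212).

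Sema4c and Plxnb2 therefore moved in opposite directions. The ratio of Sema4c to Plxnb2 in a library was 4.88 and 5.58 in type I, 1.78 and 1.03 in type II, and 0.519 and 0.399 in type III. The ligand had the higher level in type I and in type II replicate 1, and the receptor in type III. In type II replicate 2 their levels were nearly equal. Sema4d, another transmembrane class 4 ligand, binds Plxnb1 and was at 4.98 and 1.73, 1.77 and 1.51, and 7.69 and 4.77 FPKM in types I, II and III (0.81 between types III and I, adjusted p = 0.491). Its receptor Plxnb1 was low, at 2.20 and 1.58, 2.69 and 2.81, and 0.845 and 1.17 FPKM (-0.52, adjusted p = 0.624).

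Sema6b, a class 6 ligand of class A plexins, was abundant throughout. It was at 87.7 and 76.7 FPKM in type I, 72.5 and 63.3 in type II, and 60.1 and 76.7 in type III (-0.27 between types III and I, adjusted p = 0.738 by limma). Plxna4, a class A plexin, was at 4.34 and 6.63, 5.78 and 9.43, and 10.8 and 13.1 FPKM in types I, II and III, without overlap between types I and III (1.01, adjusted p = 0.176). With the replicate block Plxna4 was called higher in type III (adjusted p = 0.0312). Plxna1 was at 6.54 to 10.9 FPKM over the 6 libraries and was not called (-0.38, adjusted p = 0.675). Sema3a, Sema4a, Sema4b, Sema5a and Sema5b stayed at or under 4.82 FPKM in every library, and none was called.

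Over the 20 semaphorins, plexins and neuropilins other than Sema3g that passed the filter, 1 was thus called higher and 3 were called lower in type III than in type I, and 16 were not called, where 2.09% of all tested genes were called higher and 2.05% lower. With the replicate block 5 of the 20 were called, 2 higher and 3 lower, as were 8.29% of all tested genes. With no filter on low values none of the 4 was called, and their adjusted p was 0.0671 for Sema7a, 0.0576 for Sema4c, 0.158 for Plxnb2 and 0.307 for Nrp1. The plot of log2 differences by gene gives all of them with their intervals.

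**Figure D3:**
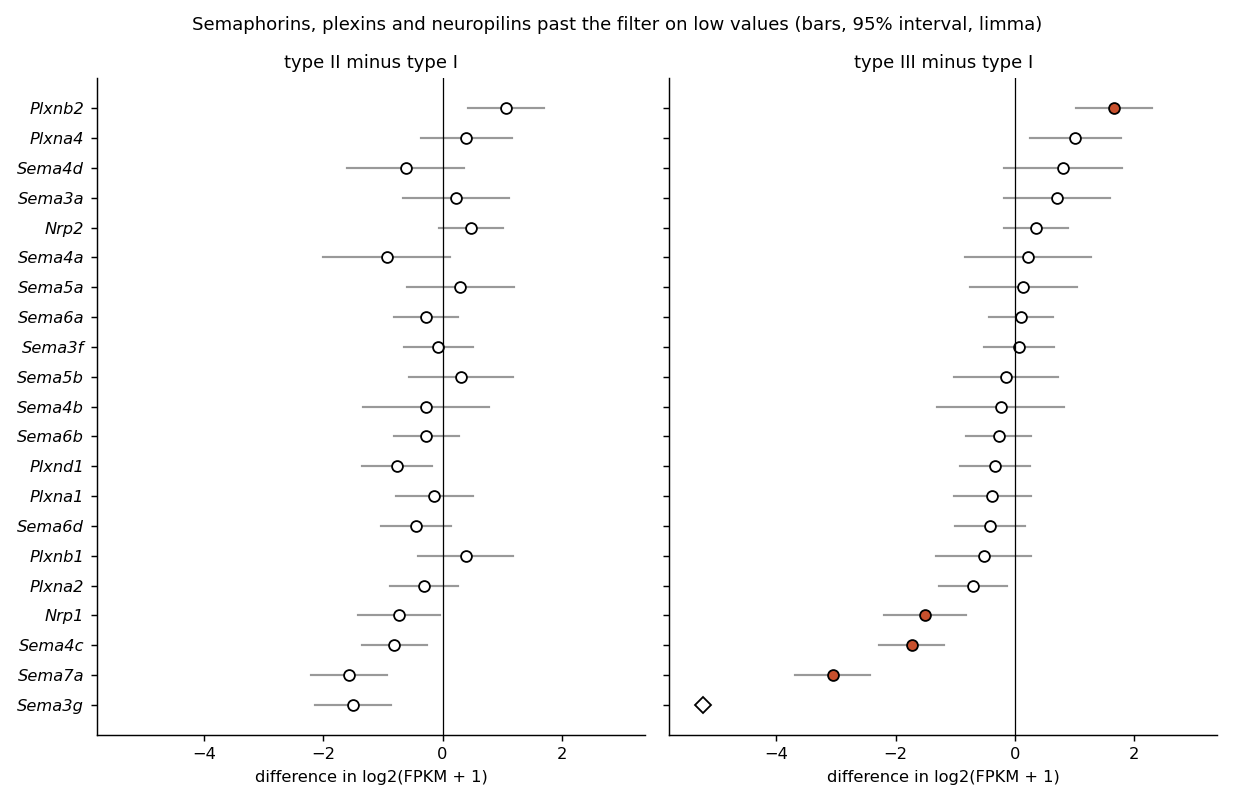
Differences in log2(FPKM + 1) with 95% intervals from limma (horizontal axes) for each semaphorin, plexin and neuropilin past the filter, type II minus type I on the left and type III minus type I on the right, both against the same type I libraries. Filled points had an adjusted p under 0.05: on the right Sema7a, Sema4c and Nrp1 lie left of 0 and Plxnb2 right of it, and Sema3g is an open diamond at -5.23 without an interval because it was chosen by this value.

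Type II shares a gate with each of the other subsets. None of the 9 genes was called in type II against type I, where 0.393% of all tested genes were called by limma, or in type III against type II, where 0.222% were. At an unadjusted p under 0.05 there were 4 of the 9 in the first comparison, against 7.48% of all tested genes, and 2 in the second, against 9.99%. Types II and I had no overlap between libraries in 8 of the 9 genes (33.6% of all tested genes), with type II the higher in 2 (13% of all) and the lower in 6 (20.6%). Types III and II had none in 6 (41% of all), with type III the higher in 3 (27.7%) and the lower in 3 (13.3%). Both comparisons use the same type II libraries, and the 9 genes were chosen with earlier results of these data known. The contrast of type II with the midpoint of types I and III, which asks whether the steps on either side differ, called none of the 9 and 0.0427% of all tested genes, with 1 of the 9 at an unadjusted p under 0.05 (5.62% of all). With the replicate block Sema7a alone of the 9 was called, lower in type II than in type I (1.56% of all tested genes called) and lower in type III than in type II (1.95%), and none against the midpoint (0.128%).

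The shift of single genes changed the make-up of each class. Summed over all 20 semaphorins, FPKM was 563 and 498 in type I, 320 and 268 in type II, and 219 and 234 in type III. The sum holds Sema3g, which made up 15.3% ± 2.35 of it in type I and 0.527% ± 0.163 in type III (SD, n = 2). Sema3g was chosen for its fall, so part of the fall of the sum follows from that choice. The same holds for part of any rise in the shares of other semaphorins. Sema7a made up 34.9% ± 2.69 (SD, n = 2) of the semaphorin FPKM in type I, 21.0% ± 2.57 in type II and 9.59% ± 2.63 in type III. Sema6b went from 15.5% ± 0.12 to 30.1% ± 3.75 and Sema3f from 8.38% ± 1.47 to 20.6% ± 4.30 between types I and III, although neither was called higher itself. The most abundant semaphorin was therefore Sema7a in type I and Sema6b in type III.

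The summed FPKM of the 9 plexins was 182 ± 11.8 in type I, 144 ± 24.9 in type II and 183 ± 32.0 in type III, so the ends did not differ beyond their spread. Plxnd1 made up 68.2% ± 2.00 of it in type I and 54.1% ± 2.21 in type III, and Plxnb2 went from 7.61% ± 2.03 to 25.0% ± 0.613. The summed FPKM of the neuropilins went from 200 ± 52.9 over 162 ± 14.1 to 119 ± 1.23. These spreads depend on the scaling. Divided by the median-of-ratios factors, the neuropilin sums were 196 ± 5.75, 168 ± 0.418 and 112 ± 14.0. The plexin sums then spread more, at 186 ± 55.2 in type I, 151 ± 38.4 in type II and 174 ± 49.7 in type III. The plot of stacked FPKM shows these sums.

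**Figure D4:**
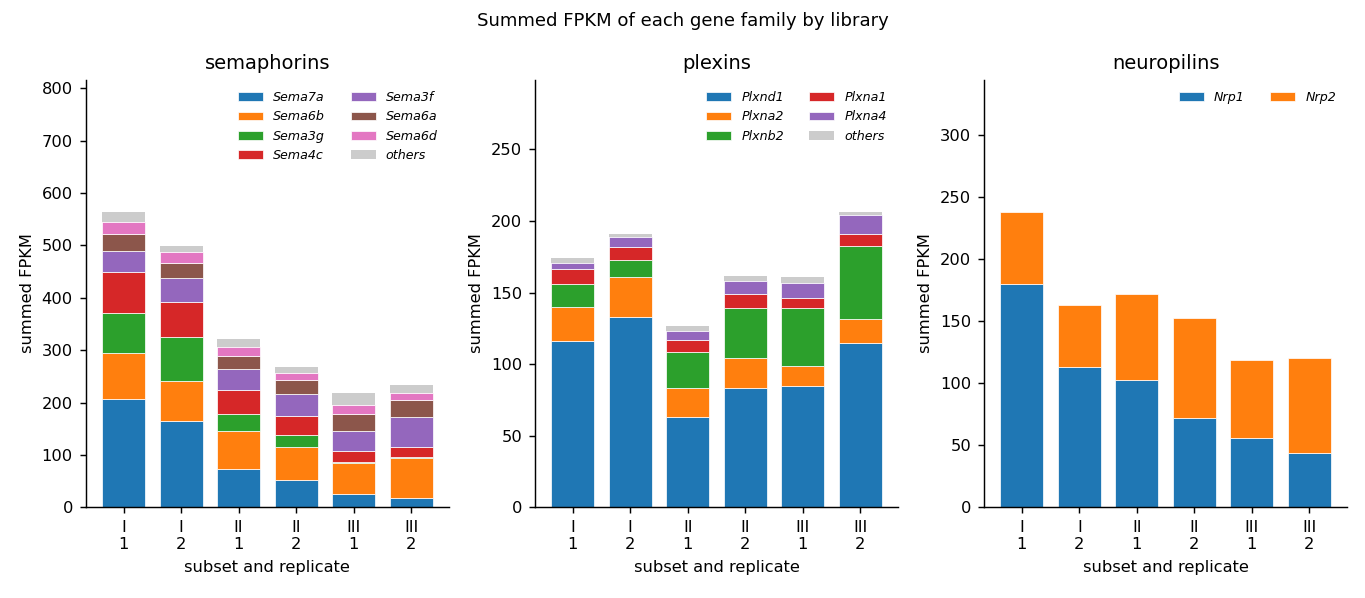
Summed FPKM (vertical axes, from 0) of semaphorins, plexins and neuropilins in each of the 6 libraries, stacked by gene in colours, with low genes together in grey. The semaphorin columns are at 563 and 498 in type I and at 219 and 234 in type III, where Sema7a and Sema3g take a smaller part, and Plxnb2 takes a larger part of the plexin columns.

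Partners of these receptors were looked up in a list of 13 co-receptors and other semaphorin receptors, of which 9 passed the filter. Between types III and I, 1 was called higher, 1 was called lower and 7 were not called, where 2.09% of all tested genes were called higher and 2.05% lower. With the replicate block 6 of the 9 were called, against 8.29% of all tested genes: Met and Cd72 were higher, and Kdr, Flt1, Flt4 and Itga1 were lower. Met, the HGF receptor that associates with class B plexins, was at 0.937 and 1.15 FPKM in type I, 3.31 and 3.58 in type II, and 8.74 and 6.13 in type III (2.03 on the log2 scale, SE 0.33, adjusted p = 0.00939 by limma). Kdr, the VEGF receptor that Nrp1 supports, was at 206 and 173, 103 and 84.7, and 63.4 and 70.2 FPKM (-1.49, SE 0.23, adjusted p = 0.00794). Met therefore rose with Plxnb2, and Kdr fell with Nrp1. The median log2 difference of the 9 was -0.17.

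Of 27 genes of plexin and neuropilin signalling 24 passed the filter. By limma 3 were called higher in type III than in type I, none was called lower and 21 were not called. Over all tested genes 2.09% were called higher and 2.05% lower. At an unadjusted p under 0.05 there were 5 of the 24 in either direction, against 14.1% of all tested genes. Rnd1, a small GTPase that binds plexins, was at 151 and 108 FPKM in type I, 198 and 201 in type II, and 289 and 305 in type III (1.21, SE 0.24, adjusted p = 0.0239 by limma). Mras, a Ras-family GTPase, was at 2.83 and 2.00, 5.15 and 4.84, and 8.47 and 10.1 FPKM (1.6, SE 0.31, adjusted p = 0.0211). Dpysl3, of the collapsin response mediator family that acts downstream of semaphorins, was at 13.0 and 10.6, 32.3 and 30.2, and 37.1 and 36.5 FPKM (1.57, SE 0.25, adjusted p = 0.00788). The median of the 24 was 0.04, beside 0.08 over all tested genes. In type II against type I and type III against type II limma called no gene of either list. Dpysl3 was higher in type II than in type I by 1.34 (adjusted p = 0.0701) and was called with the replicate block (0.0143), with all 3 rescalings (0.0169 to 0.0238) and with a mean FPKM of at least 5 (0.0488). Kdr was lower by 1.01 (0.156) and was called with the replicate block (0.0380) and with quantile normalization (0.0464), and Flt4 was called lower with the block (0.0342). At an unadjusted p under 0.05 there were 4 of the 9 co-receptors and 4 of the 24 signalling genes in the first, against 7.48% of all tested genes, and 3 and 4 in the second, against 9.99%.

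The 5 calls of Met, Kdr, Rnd1, Mras and Dpysl3 kept their direction and were lost in some fits. With no filter on low values all 5 were lost at the same log2 differences, with adjusted p of 0.0862 for Kdr, 0.0505 for Dpysl3, 0.0975 for Met, 0.0975 for Mras and 0.183 for Rnd1. Kdr lost its call without type III replicate 1 (-1.41, adjusted p = 0.0823) and without type III replicate 2 (-1.56, 0.0578), and so did Dpysl3 (1.56, 0.0696 and 1.58, 0.0647). Met lost its call without type I replicate 1 (1.96, 0.0551), type I replicate 2 (2.1, 0.0541) and type III replicate 1 (1.81, 0.0910). Mras lost its call without type I replicate 1 (1.77, 0.0528), type I replicate 2 (1.42, 0.127), type III replicate 1 (1.71, 0.0956) and type III replicate 2 (1.48, 0.130). Rnd1 lost its call without type I replicate 2 (0.97, 0.0775), type II replicate 1 (1.21, 0.0627), type II replicate 2 (1.21, 0.0680), type III replicate 1 (1.25, 0.144) and type III replicate 2 (1.17, 0.148), and also without trend (0.0769) and with only the libraries compared (0.0669).

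The genes most like Sema3g, Nrp1 and Plxnb2 across the 6 libraries were found by Pearson's r on log2(FPKM + 1) among 4189 genes outside these families with a mean FPKM of at least 10. The 6 points share 3 subsets and their sorts, so r is a description, and it does not measure the size of a change. Sema3g was most like Ablim3 (r = 0.997), Btnl9 (0.997) and Nes (0.993), and 3.87% of the 4189 genes had an r of at least 0.9. Btnl9 was at 48.9 and 46.7 FPKM in type I, 18.8 and 10.1 in type II, and 0.591 and 0.229 in type III, close to the course of Sema3g. Ablim3 fell less, from 67.6 and 63.8 FPKM in type I to 11.4 and 12.0 in type III. Nrp1 was most like Tuba1a (0.997), Tsc22d3 (0.995) and Map4k3 (0.995), with 5.04% of genes at 0.9 or above. Plxnb2 was most like Spns2, a transporter of sphingosine 1-phosphate (0.999), Abca1, a cholesterol exporter (0.993), and Pcdh7, a protocadherin (0.992), with 4.92% of genes at 0.9 or above. Spns2 was at 51.3 and 43.1, 64.6 and 77.4, and 86.9 and 94.4 FPKM in types I, II and III. Pcdh7 rose more than Plxnb2, from 1.51 and 0.566 FPKM in type I to 39.0 and 47.8 in type III.

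The arterial and venous marker lists moved along the same axis. The 7 arterial markers summed to 204 and 184 FPKM in type I and to 117 and 86.1 in type II. In type III the sum was 47.7 and 48.0 FPKM. Of the 7, 6 were called lower in type III than in type I, where 2.05% of all tested genes were. The sum of 5 venous markers, Selp included, was 89.3 ± 5.49 FPKM in type I and 1851 ± 394 in type III. Of the 5, 3 were called higher, Ackr1, Vwf and Selp, where 2.09% of all tested genes were. Selp was a gate of the sort, so its call was set by the sort, and it averaged 591 FPKM in type III. The arterial sum fell from type I over type II to type III, the same order as Sema3g, Sema7a and Nrp1. Sema3g was chosen for its fall, and 17.1% of all tested genes were lower in type III than in type I without overlap. The part of arterial ECs in the values of these genes was not tested.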

How the data were processed

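Per the labels, the authors processed the reads with CASAVA 1.8, mapped them with TopHat2 2.0.10 to mm9 and computed FPKM values in each library with Cufflinks 2.1.1; replicates were not pooled. Libraries were made with a kit that does not mark strand, and the gene annotation is not given in the sources used here. Cuffdiff results were not used. From the deposited FPKM, log2(FPKM + 1) was fitted with limma 3.58.1 (R 4.3.3, empirical Bayes with trend, all 6 libraries in 1 fit, no rescaling) over 11717 of 24457 genes, those reaching 1 FPKM in 2 or more libraries, at an adjusted p of 0.05. The script was tested on simulated data. Fragments were estimated from the deposited interval bounds as if these held counting error alone. Alternatives were pseudocounts of 0.1 and 0.5, other filters and scalings, a block on the replicate number, a fit with no trend, only the libraries compared, and each library left out. Genes named were the 10 genes, the other semaphorins and plexins past the filter, called genes of the partner and signalling lists, the sort markers, and the 3 genes most like each of Sema3g, Nrp1 and Plxnb2; others were chosen after their values were seen. Pairing was checked by the correlation of same-numbered libraries' deviations from their subset means, which was 0.199 for types I and II, 0.306 for types I and III and 0.180 for types II and III; the numbers come from the labels, which name no shared batch. The members and lists were chosen with earlier results of these data known. RefSeq promoter stretches came from a GRCm38.p6 table and were placed on mm9 by exact match.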

Additional observations from a re-analysis of the deposited data

How the results depend on the processing

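The type III against type I calls of Sema7a, Sema4c, Plxnb2 and Nrp1 kept their direction in all alternatives. Between types III and I, 485 genes were called over all tested genes, between types II and I 46 (38 higher and 8 lower), between types III and II 26 (11 higher and 15 lower), and for type II against the midpoint 5. With no filter on low values these were 102, 10, 2 and 3, and 0 in place of 4 of these families were called in type III against type I. With median-of-ratios scaling, equal sums without Rn45s and quantile normalization, type II against type I gave 97 (68 higher and 29 lower), 102 (74 and 28) and 102 (72 and 30), with 1 of these families, Sema7a, each time. Type III against type II gave 85 (23 and 62), 126 (29 and 97) and 89 (21 and 68), with 1, 2 and 2 of these families, Sema7a each time and Sema4c in the last pair. These scalings moved the median difference of all genes by up to 0.18, from 0.14 to -0.04 in type III against type II. With a mean FPKM of at least 5, 1 of these families other than Sema3g was called in type II against type I. Without trend, the last 3 comparisons gave 15, 10 and 1, and with only the libraries compared, type II against type I gave 29 and type III against type II gave 7. The cause of these changes was not tested, beyond the fewer libraries or other genes in some fits.

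With a library left out, the counts ran from 209 to 404, 12 to 33, 2 to 14 and 1 to 4 over all genes, and from 2 to 4, 0 to 0, 0 to 0 and 0 to 0 in these families. With the replicate block the counts over all genes were 971, 183, 229 and 15, with 5 of these families in type III against type I, 1 in type II against type I and 2 in type III against type II, and it changed no call of these families and partner lists beyond those given above. Sema3g in type II against type I had an adjusted p of 0.0192 to 0.553 over the alternatives. Depth limits Sema3g in type III to an estimated 11 and 13 fragments.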

Other observations

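Sema4d and its leukocyte receptor Cd72 were both highest in type III replicate 1, as were the leukocyte markers. Cd72, a receptor of B cells and macrophages that was named after its values were seen, was at 1.43 and 0.623 FPKM in type I, 1.14 and 0.421 in type II, and 5.19 and 3.18 in type III, and its difference of 1.36 between types III and I was called with the replicate block (adjusted p = 0.0350) and not without it (0.137 by limma). The sum of 8 myeloid markers was 236 and 33.3 FPKM in type I, 87.5 and 36.8 in type II, and 406 and 75.2 in type III, and that of 4 B cell markers was 4.58 and 3.15, 5.19 and 0.240, and 14.6 and 8.08. The part of these cells in the values of Sema4d and Cd72 was not tested.

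Flt4, the receptor of VEGF-C that Nrp2 supports, also named after its values were seen, was at 20.0 and 16.7 FPKM in type I, 7.21 and 7.003 in type II, and 9.45 and 7.15 in type III. Its difference between types III and I was -1.06 (adjusted p = 0.0799 by limma, and 0.0192 with the replicate block), while Nrp2 had its lowest libraries in type I.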
